A study of Mus musculus with 3 samples.

Results

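Regulatory T cells (Tregs) hold immune responses in check under the control of the transcription factor Foxp3. The cells described here are lymph node Tregs that carried the transcripts of the type I interferon response. They were chosen from 1 library by their own counts of 5 interferon-stimulated genes, Ifit1, Ifit3, Isg15, Rsad2 and Usp18. A lymph node barcode was kept with at least 500 UMIs (unique molecular identifiers, each standing for 1 captured transcript), at least 300 genes, at most 10% mitochondrial UMIs and at least 2 UMIs over Cd3d, Cd3e, Cd3g and Cd4. The score was the summed UMIs of the 5 genes over all UMIs of the cell, and cells above 0 and at or above the 96th percentile were taken. That rule gave 373 interferon-signature cells of 9305 kept lymph node cells, and of 10414 kept cells in the whole series. The remaining 8932 kept lymph node cells are the comparison throughout. All of them came from adult mice of the strain FOXP3-EGFP (C.Cg-Foxp3tm2Tch/J), in which green fluorescence reports Foxp3. Lymph node was mashed and cells positive for GFP, CD4, CD3 and CD45 were sorted. The epidermal and dermal Tregs of the series, from back skin of the same strain per the labels, were used only in the last comparison. Each of the 3 tissues had 1 library, and the number of animals pooled for it was not stated.

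Type I interferons signal through the receptor pair Ifnar1 and Ifnar2 and the kinases Jak1 and Tyk2 to a complex that holds Stat2 and Irf9 and binds a short DNA element called the ISRE. The genes it switches on detect viral nucleic acid, block viral replication, tag proteins with Isg15, and raise antigen presentation. Interferon gamma uses another receptor and acts on a different element, the GAS, and both interferons share many target genes. In T cells the same signal is also known to change proliferation and survival.

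The 5 genes of the score have distinct roles. Ifit1 and Ifit3 are cytosolic proteins that bind viral RNA or assist its binding, Isg15 is a ubiquitin-like protein, Rsad2 (viperin) makes an antiviral nucleotide, and Usp18 removes Isg15 from proteins and dampens the interferon receptor. The 250 bases before the RefSeq start of 4 of these genes are shown because they carry the letters of the interferon element, which the counts of promoters further down refer back to. They are from RefSeq on GRCm38.p6 and read 5′ to 3′ on the strand of the gene. Capitals mark each match to the ISRE letters, which are GAAA, a gap of 2 bases of any kind and GAAA again, on either strand. Usp18 had no entry in the table used.
Ifit1: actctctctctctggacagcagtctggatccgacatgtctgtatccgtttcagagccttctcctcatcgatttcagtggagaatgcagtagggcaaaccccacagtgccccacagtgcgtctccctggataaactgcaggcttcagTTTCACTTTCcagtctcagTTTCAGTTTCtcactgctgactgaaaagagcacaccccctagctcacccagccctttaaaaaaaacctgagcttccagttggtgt
Ifit3: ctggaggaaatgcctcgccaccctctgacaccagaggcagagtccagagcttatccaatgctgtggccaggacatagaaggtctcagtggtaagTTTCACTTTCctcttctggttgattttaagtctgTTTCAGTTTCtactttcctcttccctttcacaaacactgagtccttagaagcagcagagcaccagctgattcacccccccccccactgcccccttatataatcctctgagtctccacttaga
Isg15: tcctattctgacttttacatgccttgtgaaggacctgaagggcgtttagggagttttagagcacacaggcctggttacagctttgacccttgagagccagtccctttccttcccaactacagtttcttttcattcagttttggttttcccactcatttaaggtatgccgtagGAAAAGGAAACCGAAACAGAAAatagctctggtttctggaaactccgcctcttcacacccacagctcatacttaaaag
Rsad2: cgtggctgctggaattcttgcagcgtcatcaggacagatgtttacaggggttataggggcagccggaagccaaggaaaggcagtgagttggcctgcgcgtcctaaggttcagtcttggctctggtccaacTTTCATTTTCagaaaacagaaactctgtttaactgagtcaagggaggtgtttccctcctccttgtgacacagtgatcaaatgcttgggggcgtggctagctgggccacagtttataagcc
The Ifit1 stretch is chr19:34640639-34640888 on the plus strand and the Ifit3 stretch chr19:34583279-34583528 on the plus strand. The Isg15 stretch is chr4:156200819-156201068 and the Rsad2 stretch chr12:26456453-26456702, both on the minus strand. Counted back from the last base shown as -1, the matches begin at -104 and -85 for Ifit1, at -156 and -122 for Ifit3 and at -120 for Rsad2. Isg15 has 3 matches that overlap one another, the first at -78 and the last at -66. These are matches of letters and not measured binding sites.

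The kept lymph node cells held 32690130 UMIs, with a median of 3034 UMIs and 1158 genes per cell. The filters left out 114 barcodes. No barcode was shared by the lymph node and epidermal libraries and 1 by the lymph node and dermal libraries, while the epidermal and dermal libraries shared 43. Interferon-signature cells had a median of 2880 UMIs (lowest 1416, highest 15068), against 3041 in the other kept cells (lowest 1378, highest 26008). Median genes per cell were 1125 and 1159, and median mitochondrial shares 2.17% and 2.27%. Levels below are UMIs summed over a group of cells and scaled to a common total (CPM). Intervals are exact 95% intervals and cover counting error only. Cells of 1 library are not replicates, so no difference was tested and all of them describe this library. A summed level can be higher because more cells carry the gene or because each carries more of it, and shares of cells stand beside the main levels for that reason.

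The score values chose the cells and are given as a description. The limit was 14.82 score UMIs per 10000 UMIs. The lowest cell inside had 14.83, the median 25.01 and the highest 145.22, and the highest cell outside had 14.77. The edge was not a gap, with 40 cells inside it by no more than 10% of the limit and 54 cells outside it by as little. Interferon-signature cells held 3, 8 and 42 UMIs of the 5 genes at the lowest, median and highest, against 0, 0 and 19 in the other kept cells. Isg15 was at 1190 CPM in interferon-signature cells and 60.3 CPM in other cells, Ifit1 at 986 and 38.7 CPM, and Ifit3 at 651 and 23.5 CPM. Usp18 was at 388 CPM in interferon-signature cells and 38.7 CPM in other cells. Rsad2 was the scarcest, at 103 and 1.75 CPM. Of all UMIs of the 5 genes in the library, 44.2% lay in the 373 cells. The remainder was spread thinly, with 2116 of the other kept cells holding exactly 1 such UMI and 5755 holding none.

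Most interferon-signature cells held UMIs of several score genes, which describes the UMIs that chose them. At least 3 different score genes were found in 297 of them (79.6%), 15 rested on 1 gene, 61 on 2, and 53 had all 5. Each gene was then left out of the score in turn, so that it was read in cells chosen by the other 4. The 5 genes were taken as a set with earlier results of these data known. High values of each in cells chosen by the others were thus largely set by that choice and are no independent evidence. The same holds for the split of UMIs below. Rsad2 was 44.3-fold higher in the chosen cells than in the rest (interval 32.5 to 60.8), with a UMI in 19.8% and 0.694% of cells. Ifit3 was at 553 CPM in the chosen cells and 27.6 CPM in the rest (18.0- to 22.1-fold higher) and Ifit1 18.2-fold higher (16.7 to 19.7). Isg15 was 14.7-fold higher (13.7 to 15.8), with a UMI in 76.7% of the chosen cells and 16.6% of the rest. Usp18 was the lowest at 8.56-fold (7.65 to 9.57). These choices, whose scores shared 4 of 5 genes with the full score, shared between 82.8% and 97.6% of their cells with it. In a check added after the data were seen, each UMI was placed at random, with equal odds, in 1 of 2 parts. With the score from one part and the levels from the other, folds were 39.9 for Rsad2 and 7.97 for Usp18. The other score genes lay between 14.9 and 19.5.

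**Figure D1:**
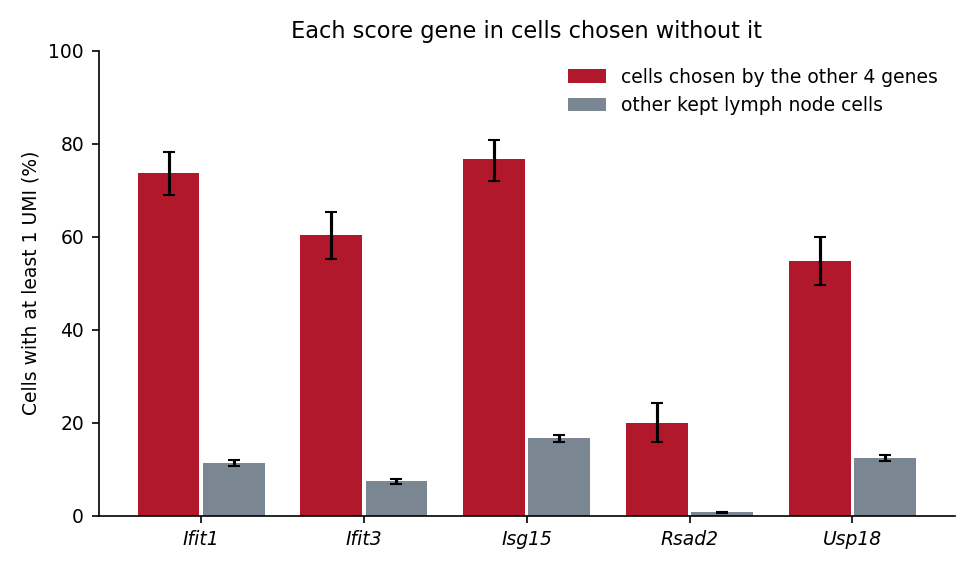
Share of cells with at least 1 UMI of each score gene (percent), in cells chosen by the other 4 genes (red) and in the other kept lymph node cells (grey), with exact 95% binomial intervals as bars. Isg15 was found in 76.7% of the chosen cells and 16.6% of the rest, and Rsad2 in 19.8% and 0.694%.

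Across the transcriptome, few genes followed the score, and those that did were mostly known interferon targets. A gene was called higher or lower when the 2 levels differed by at least 2-fold, among 6729 genes with at least 10 CPM over all kept cells together. Of these, 101 (1.5%) were higher and 76 (1.13%) lower in interferon-signature cells, and the median log2 ratio over all of them was -0.06. Leaving out the score genes, 97 were higher, of which 74 were among the 140 tested genes of 13 interferon lists. The lists were chosen with results of these data known, so the counts describe how far the response reached and are no independent evidence of it. For 67 of all 101 higher genes, the 4 called score genes included, the whole interval lay above 2-fold.

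**Figure D2:**
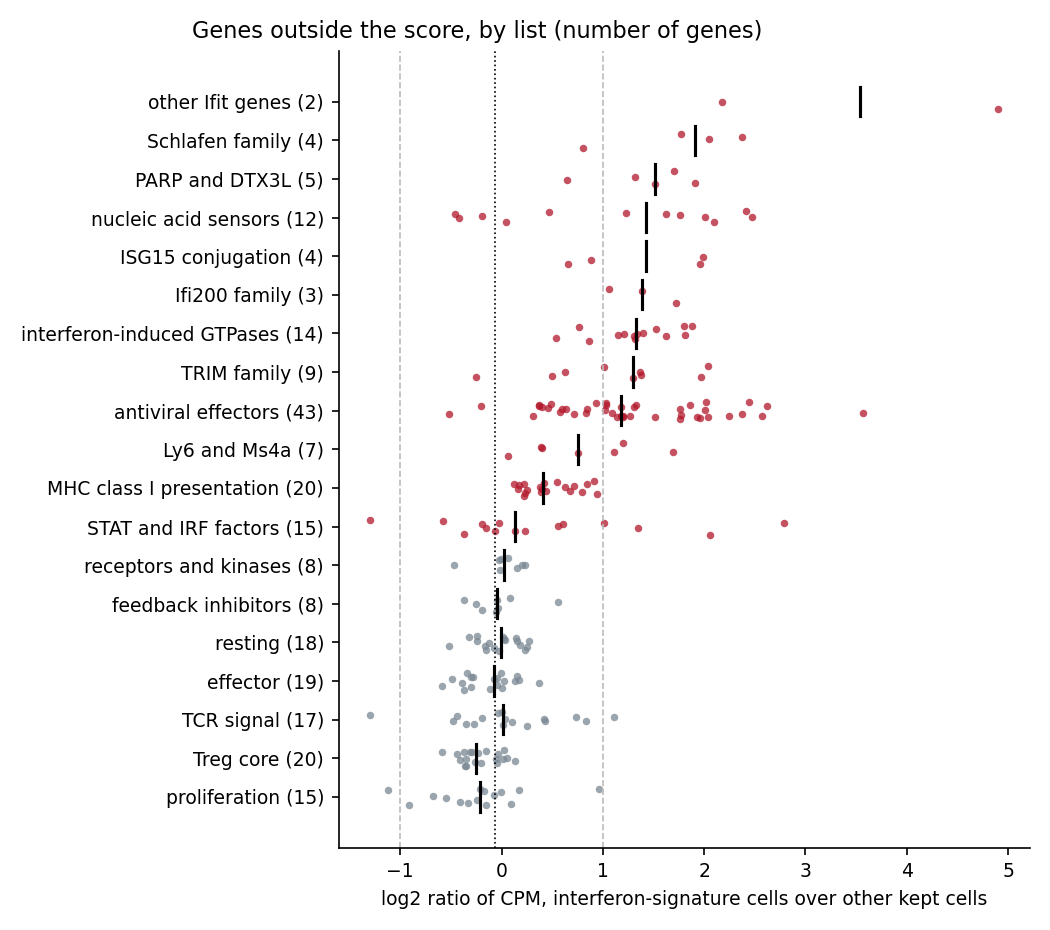
Ratio of CPM in interferon-signature cells over other kept lymph node cells (log2, horizontal axis) for each tested gene outside the score (points), by list, with the number of genes in parentheses. Red marks lists of interferon-stimulated genes and of STAT and IRF factors, grey marks receptors, inhibitors and T cell programmes, black bars are medians, the dotted line is the median of all genes (-0.06) and dashed lines mark 2-fold. MHC class I genes sit above 0 but under 2-fold, and 16 of 20 Treg core genes lie below 0.

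The ligands themselves were almost absent. Of 20 interferon genes in the table, 18 had no UMI in any kept lymph node cell. Ifng, which encodes interferon gamma, had 6 UMIs in 6 interferon-signature cells and 61 UMIs in 56 other cells, at 4.91 and 1.94 CPM, a ratio of 2.53 with an interval from 0.895 to 5.84. A count of 0 allows up to 3 UMIs in a group, so low expression of the others was not detectable at this depth.

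No gene of the receptors and kinases reached the 2-fold limit. None of the 8 tested genes was called and their median log2 ratio was 0.03. Ifnar1 was at 93.3 CPM in interferon-signature cells and 83.7 CPM in other cells, and Ifnar2 at 40.1 and 55.7 CPM (ratio 0.72, 0.531 to 0.957). The kinases Jak1 and Tyk2 had ratios of 0.994 (0.881 to 1.12) and 0.989 (0.599 to 1.54). None of 8 feedback inhibitors was called either, with a median log2 ratio of -0.05. Socs1, which blocks Janus kinases, had the highest ratio of them at 1.48 (1.29 to 1.67).

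Of 15 tested STAT and IRF factors, 4 were called higher, 1 was called lower and 10 were not called, with a median log2 ratio of 0.13. Irf7, the factor that amplifies type I interferon responses, was at 320 CPM in interferon-signature cells and 46.5 CPM in other cells, 6.89-fold higher (6.15 to 7.71). Stat2 was 4.18-fold (3.16 to 5.44) and Irf9 2.02-fold higher (1.74 to 2.32). Irf9 stood at the edge of the 2-fold limit and was under it in 6 of 22 alternative settings, with a lowest log2 ratio of 0.61. Settings that changed only the CPM minimum could not alter its ratio. In 1 of these settings the rule was run anew among only the cells with a Foxp3 UMI, and its 96th percentile took 27 of them. The log2 ratio of Stat2 in those 27 cells over the remaining cells with a Foxp3 UMI was -0.59. Of the interferon-signature cells themselves, 21 had a Foxp3 UMI. Stat3, which many cytokines use, had a ratio of 1.18 (0.970 to 1.41) and was not called. Irf1, a target of interferon gamma and of type I interferon, had a ratio of 1.52 (1.31 to 1.75), and Irf8 of 0.983 (0.672 to 1.39). Irf4, induced by T cell receptor signals, was called lower at a ratio of 0.406 on only 8 UMIs (0.175 to 0.807). After each cell was thinned to 1500 UMIs, which left out 3 interferon-signature cells and 86 others, Irf7 was found in 36.0% of 370 interferon-signature cells and 6.84% of 8846 others. Without thinning the shares were 58.2% and 13.6%. The cells were sorted as Tregs, and the share of these UMIs that came from free RNA was not measured.

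Sensors of viral nucleic acid were higher for 7 of 12 tested genes, with a median log2 ratio of 1.43. Among genes of cytosolic RNA sensing, Dhx58 was 5.55-fold (4.43 to 6.89), Ifih1 5.32-fold (3.998 to 6.98), Ddx60 4.29-fold (3.38 to 5.37) and Ddx58 3.38-fold higher (2.71 to 4.18). Zbp1, which senses left-handed nucleic acid, was at 386 CPM in interferon-signature cells and 95.6 CPM in other cells, 4.03-fold higher (3.65 to 4.45). Tmem173, which encodes the DNA pathway adaptor STING, had a ratio of 1.03 (0.865 to 1.21). Eif2ak2, the RNA-activated kinase PKR, was 4.04-fold higher (3.24 to 4.98).

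Antiviral effectors made up the longest list, and 28 of its 43 tested genes were called higher, none lower, with a median log2 ratio of 1.18. Ifitm3, a membrane protein that hinders virus entry, was 11.8-fold higher (9.60 to 14.5), at 112 CPM in interferon-signature cells and 9.47 CPM in other cells. Only 16.1% of interferon-signature cells had a UMI of it, and 5 cells gave 29.2% of its UMIs in them. Rtp4 was 6.17-fold higher, the exonuclease gene Isg20 5.95-fold and Xaf1, which promotes cell death, 5.44-fold. Bst2 (tetherin), which holds budding virus at the cell surface, was at 603 CPM in interferon-signature cells and 147 CPM in other cells, with a UMI in 52.7% and 18.8% of thinned cells. Ifi27l2a was already abundant in the whole library and reached 4544 CPM in interferon-signature cells, against 2003 CPM in other cells.

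Neighbours of the score genes on the chromosome were higher too. Ifit3b and Ifit1bl1 lie between Ifit3 and Ifit1 on chromosome 19. Ifit1bl1 was 4.53-fold higher in interferon-signature cells (3.95 to 5.18). Ifit3b was 29.9-fold higher (24.7 to 36.3), at 193 CPM against 6.45 CPM in other cells. Ifit3b is a near copy of Ifit3, a score gene, and reads of one may have been counted for the other, so its value is uncertain. Ifit2 and most OAS genes fell under the 10 CPM limit over all kept cells and were not counted. Of the 10 OAS genes under it, 5 had no UMI in interferon-signature cells, and 3 of those had none in any kept cell. Some others were far apart, with Oasl2 at 85.9 CPM in interferon-signature cells and 6.96 CPM in other cells, and Oas3 at 73.7 and 7.44 CPM. Oasl1 was at 66.3 and 3.78 CPM. Mx1 had 48 UMIs in interferon-signature cells and 36 in all other cells, at 39.3 and 1.14 CPM. Oas1a passed the limit and was 3.99-fold higher (3.12 to 5.05).

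In 6 other gene families between 2 of 4 and 3 of 3 tested genes were called higher and none lower. Of the enzymes of Isg15 conjugation 2 of 4 were called, and the carrier Ube2l6 was 3.96-fold (3.28 to 4.74) and the ligase Herc6 3.90-fold higher (3.18 to 4.74). The activating enzyme Uba7 had a ratio of 1.84 (1.38 to 2.43) and Herc3 of 1.57 (0.947 to 2.47), and neither was called. Parp9 was 3.75-fold and its partner Dtx3l 2.85-fold higher, among 4 of 5 genes called in their list. Schlafen genes, which act on T cell quiescence and viral RNA, were higher for 3 of 4, led by Slfn5 at 5.17-fold (4.29 to 6.19). TRIM genes were higher for 6 of 9, led by Trim30a at 4.10-fold, while the lowest of them had a log2 ratio of -0.25. The Ifi200 genes Pyhin1, Ifi203 and Mndal were all called, at 3.30-, 2.62- and 2.08-fold. Ifi203 and Mndal overlap on the same strand, and copies within these families could share reads, so how UMIs were divided among them is uncertain. The GTPases that interferon gamma also induces were higher for 11 of 14, with a median log2 ratio of 1.33. Gbp9 was 3.68-fold (3.07 to 4.40), Iigp1 3.48-fold (3.06 to 3.95) and Irgm1 3.09-fold higher (2.70 to 3.51).

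All 20 tested genes of MHC class I presentation had ratios above 1, none reached 2-fold, and the median log2 ratio was 0.41. The peptide-loading gene Tapbp was at 437 CPM in interferon-signature cells and 227 CPM in other cells, a ratio of 1.92 (1.76 to 2.10). The lowest ratio was 1.09, of H2-Q7 (1.02 to 1.17), and the most abundant genes of the list had ratios of 1.13 (H2-D1), 1.12 (H2-K1) and 1.19 (B2m). Of the Ly6 and Ms4a genes 3 of 7 tested were called higher, and of secreted and surface response genes 2 of 10, with none lower. The called ones are given here. Ly6a (Sca-1) was at 882 CPM in interferon-signature cells and 385 CPM in other cells, and Ly6c1 at 351 and 163 CPM. Ms4a4c was 3.22-fold higher (2.79 to 3.70). Cd69, which retains T cells in lymphoid tissue and is induced by both interferon and the T cell receptor, was 2.16-fold higher (1.88 to 2.47). Cd274, which encodes the checkpoint ligand PD-L1, was 2.01-fold higher on 31 UMIs (1.35 to 2.90). Cd69 stayed at least 2-fold higher in 18 of 22 alternative settings. Cd274 did so in 15, with a lowest log2 ratio of 0.20. Cxcl10, a chemokine induced by interferon, was at 29.5 CPM in interferon-signature cells and 3.30 CPM in other cells, under the limit for a call.

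The breadth of the response was also visible cell by cell. The 8 antiviral lists were pooled to 120 genes outside the score, and each thinned cell was given the number of them with a UMI. Interferon-signature cells carried 5, 17 and 41 of these genes at the lowest, median and highest. Other cells carried 1, 9 and 25. At least 10 were found in 93.0% of interferon-signature cells and 40.4% of other cells, so the groups overlapped, while their interquartile ranges (13 to 21 and 7 to 11 genes) did not.

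**Figure D3:**
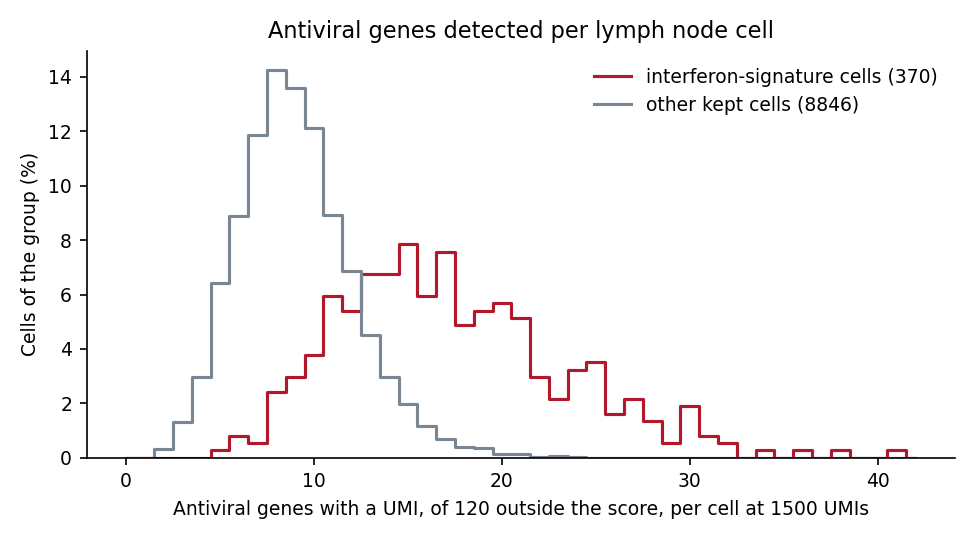
Number of antiviral genes with a UMI per lymph node cell at 1500 UMIs (horizontal axis, of 120 genes outside the score) against the percent of cells of each group, for 370 interferon-signature cells (red) and 8846 other kept cells (grey). The medians are 17 and 9, and the distributions overlap between 5 and 25 genes.

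Interferon gene groups outside the score were higher at higher scores, though not each of them in every step. The pooled antiviral genes were at 9669 CPM in cells with no score UMI and 11269 CPM in cells above 0 but under the limit. With the interferon-signature cells divided by score into 4 bins of 93 or 94 cells, they were at 17247, 19283, 20716 and 30417 CPM. Irf7 was at 34.1 and 65.1 CPM in those 2 steps under the limit, and at 241, 248, 298 and 527 CPM in the bins. The GTPases were at 1007, 1309, 2068, 2625, 2656 and 4529 CPM in the same order. Other genes did not climb through the bins in order. Ly6a was at 956, 897, 716 and 990 CPM in the 4 bins, Bst2 at 359, 663, 595 and 842 CPM and Irf9 at 144, 167, 144 and 231 CPM. MHC class I presentation genes summed to 18113, 19156, 18297 and 21055 CPM. In all 4 bins these stood above cells with no score UMI, where Ly6a was at 343, Bst2 at 124, Irf9 at 74.2 and the MHC class I genes at 15190 CPM. Treg core genes were lower in the bins, at 4743, 4694, 4775 and 4813 CPM. In the 2 steps under the limit they were at 5431 and 5481 CPM. Under the limit, 170 cells with at least 3 different score genes had 14042 CPM of the pooled antiviral genes. The 15 interferon-signature cells resting on 1 score gene had 20746 CPM. These 2 groups differed in depth, with a median of 4703 UMIs in the 170 cells and 1965 in the 15. Median depth in the 6 steps ran from 2723 to 3273 UMIs per cell.

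**Figure D4:**
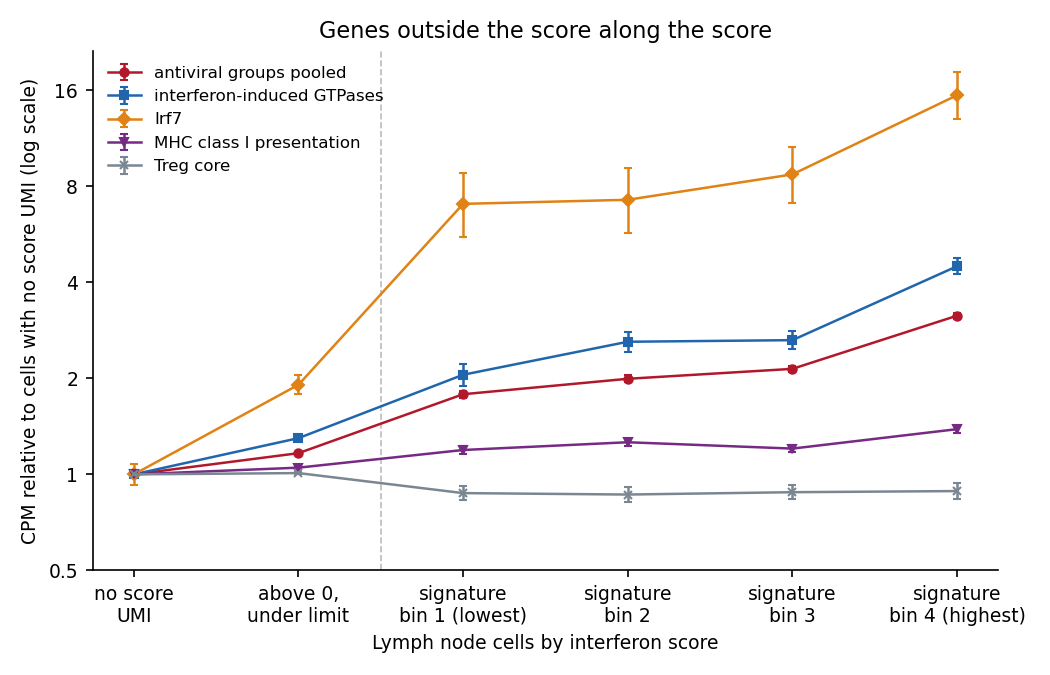
Summed CPM of gene groups and of Irf7 in 6 steps of the interferon score, relative to cells with no score UMI (log scale), with exact 95% Poisson intervals of each level as bars. The dashed line marks the limit of the rule. Irf7 was at 34.1 CPM in cells with no score UMI and 527 CPM in the highest bin, and Treg core genes lay between 4694 and 5481 CPM in all 6 steps.

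Genes of the Treg programme were somewhat lower in sum, with none past 2-fold. None of 20 Treg core genes was called, and their summed level was 4755 CPM in interferon-signature cells and 5451 CPM in other cells, a ratio of 0.872 (0.850 to 0.895). The median log2 ratio was -0.25, against -0.06 over all tested genes, and 16 of the 20 genes had a ratio below 1. Since the median of all tested genes was negative too, a ratio of 1 was not their middle. The activation receptors Tnfrsf9 (0.667, 0.553 to 0.797) and Tnfrsf4 (0.735, 0.677 to 0.796) lay farthest from 1. Foxp3 itself was sparse, with a UMI in 5.63% of interferon-signature cells and 7.24% of other cells before thinning, and in 3.24% and 3.22% at 1500 UMIs. Il2ra, the high-affinity chain of the IL-2 receptor, was at 217 and 213 CPM, and Ikzf2 (Helios) at 756 and 747 CPM. Ctla4 was at 150 CPM in interferon-signature cells and 167 CPM in other cells, with an interval of the ratio from 0.770 to 1.04. The label of Tregs thus rests on the sort and on these genes, since Foxp3 transcripts were too sparse to mark single cells.

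Resting and effector states were both represented. None of 18 resting and 19 effector genes was called, with median log2 ratios of -0.01 and -0.07. Ccr7, the chemokine receptor that guides T cells into lymph node, was at 181 CPM in interferon-signature cells and 225 CPM in other cells (0.802, 0.699 to 0.917). Cells in the top 10% of a programme at 1500 UMIs, ties included, were counted next. Resting-high cells were 8.65% of interferon-signature cells (5.99 to 12.0) and 10.4% of other cells (9.74 to 11.02). Effector-high cells were 8.65% and 10.6%, and cells high in T cell receptor signal genes 11.6% and 11.2%. Treg core-high cells were 5.95% of interferon-signature cells (3.76 to 8.86) and 10.6% of other cells (9.95 to 11.2). Proliferation-high cells were 6.49% (4.1999 to 9.50) and 10.4% (9.75 to 11.03), and stress-high cells 18.4% (14.6 to 22.7) and 13.5% (12.8 to 14.3). Within the interferon-signature cells, the effector-high ones had 27130 CPM of the pooled antiviral genes (26233 to 28051) and the remaining ones 20884 CPM (20613 to 21157). The resting-high ones likewise had 24394 CPM (23418 to 25400) and the remaining ones 21291 CPM. The Treg core-high and proliferation-high ones had 20130 and 19948 CPM, against 21642 and 21678 CPM in the remaining ones. These groups were small, with 32 effector-high, 32 resting-high, 22 Treg core-high and 24 proliferation-high cells. Their intervals leave out the spread between cells, and their interferon scores were not compared.

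Markers of other cell types summed to at most 86.1 CPM in either group of cells, except those of dendritic cells. Markers of B cells summed to 30.3 CPM in interferon-signature cells and 38.5 CPM in other cells, macrophage and monocyte markers to 44.2 and 53.2 CPM, and neutrophil markers to 1.64 and 3.94 CPM. Markers of CD8 T and natural killer cells came to 72.0 and 77.0 CPM and stromal and endothelial markers to 80.2 and 86.1 CPM. Dendritic cell markers summed to 467 CPM in interferon-signature cells and 570 CPM in other cells, with at least 3 UMIs in 16.4% and 25.7% of cells. Ccr7, which T cells also express, led that list at 181 and 225 CPM. Of its 13 genes, 6 were at 0 in interferon-signature cells, and 2 of them, Itgax and Clec9a, in other cells too. Plasmacytoid dendritic cell markers, of the cell type best known for making type I interferon, summed to 40.1 CPM in interferon-signature cells and 21.1 CPM in other cells. Ly6d led that list at 26.2 and 7.56 CPM. Of its 9 genes, 5 were at 0 in interferon-signature cells, and 3 of them, Siglech, Klk1 and Smim5, in other cells too. Interferon-signature cells held 1221648 UMIs and other cells 31468482, so a 0 is likelier in the former. At least 3 UMIs of the list were found in 6 interferon-signature cells (1.61%) and in 30 other cells (0.336%). The part of such transcripts in the results was not tested.

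The GTPase genes offered a second way to cut the library, by the same rule with the 96th percentile of the GTPase list. It took 374 GTPase-high cells, and 96 of them were interferon-signature cells, 25.7% of each class. Of the other kept cells, 3.11% were GTPase-high. Irf7 was at 260 CPM in interferon-signature cells that were not GTPase-high, 531 CPM in cells of both classes, 82.1 CPM in GTPase-high cells alone and 45.5 CPM in cells of neither. Irf1 ran in another order, at 137, 277, 298 and 105 CPM in those classes. Irf8 was at 22.1 CPM (13.7 to 33.8) in interferon-signature cells alone and 111 CPM (89.9 to 136) in GTPase-high cells alone, against 25.1 CPM (23.4 to 27.0) in cells of neither. Bst2 was at 530 and 266 CPM in interferon-signature cells alone and GTPase-high cells alone. Interferon-signature cells alone had 2051 CPM of the GTPases themselves, against 1010 CPM in cells of neither class, so the GTPases were raised outside the shared cells too.

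**Figure D5:**
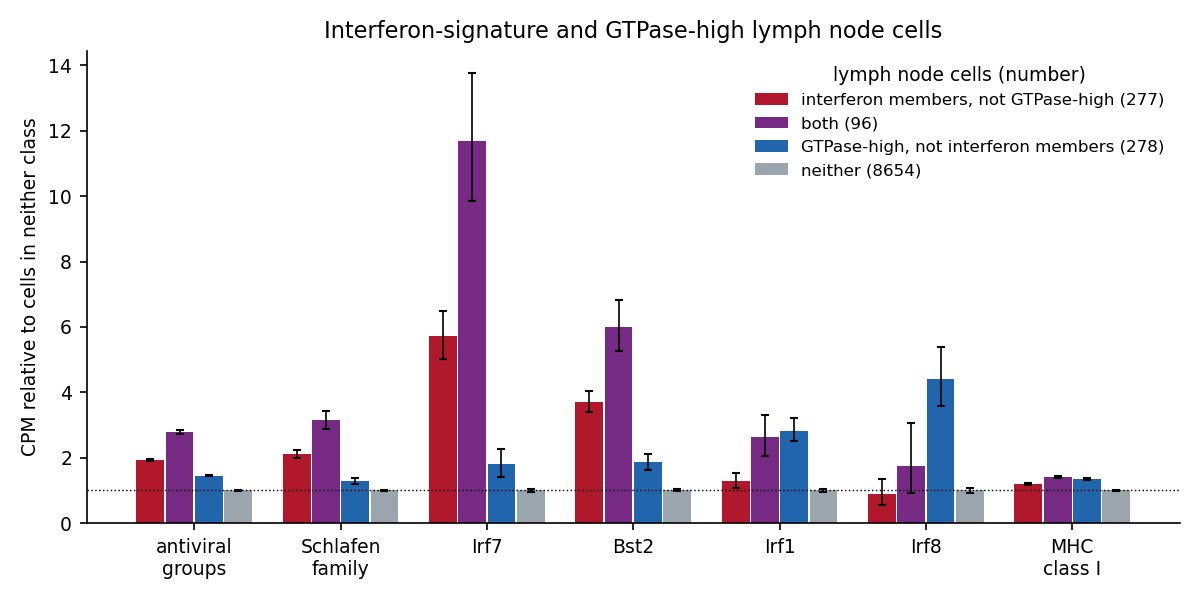
CPM of gene groups and single genes relative to cells of neither class (vertical axis), for interferon-signature cells alone (277 cells, red), cells of both classes (96, purple), GTPase-high cells alone (278, blue) and neither (8654, grey), with exact 95% Poisson intervals of each level as bars. Irf7 and Bst2 are highest in cells of both classes and next in interferon-signature cells alone, while Irf8 is highest in GTPase-high cells alone.

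Beyond the lists, 21 higher genes were in no list used. Pydc3, Pydc4 and Gm4955, which RefSeq names Ifi208, Ifi213 and Ifi206 and which thus belong to the Ifi200 family, were 5.39-, 4.75- and 4.40-fold higher. Pml, which builds nuclear bodies that restrict viruses, was 3.96-fold higher (3.16 to 4.92). Nampt, an enzyme of NAD synthesis, was 2.40-fold (1.88 to 3.03), Ncoa7 2.47-fold (2.05 to 2.96) and Gadd45g 2.62-fold higher (1.78 to 3.76). These genes were picked out after their values were seen, apart from Pydc3 and Pydc4, which were among the 20 highest ratios.

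Most lower genes rested on few UMIs. Of the 76, 54 had under 10 UMIs in interferon-signature cells, and for 1 the whole interval lay under a ratio of 0.5. That gene was Nrn1, which encodes neuritin and is known from Tregs and anergic T cells, at 11.5 CPM in interferon-signature cells and 47.7 CPM in other cells (0.240, 0.131 to 0.404). It rested on 14 UMIs in interferon-signature cells, 57.1% of them in 5 cells. With the minimum raised to 50 CPM, 44 genes were higher and 0 lower, by the same 2-fold rule and with no test. In 6 of 22 alternative settings lower genes outnumbered higher ones, as with the 98th percentile, where 140 genes were higher and 303 lower, and at a minimum of 5 CPM, where 130 were higher and 211 lower.

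The ISRE letters shown above were frequent near genes that were higher. They were found on either strand in 3.44% of all 32851 RefSeq promoter windows of 300 bases. Genes were counted once, with a match in any of their windows. Of tested genes with a window, 230 of 5465 (4.21%) had the letters. Of higher genes with a window it was 37 of 79 (46.8%), the score genes left out. For genes at least 4-fold higher the count was 15 of 19 (78.9%), and for those between 2- and 4-fold it was 22 of 60 (36.7%). Of lower genes with a window, 2 of 62 had them (3.23%), and of genes not called 3.53%. The GAS letters TTCNNNGAA were in 8.30% of all windows and, by gene, in 8.20% of tested genes, 17.7% of higher genes and 8.04% of genes not called. Of 11 tested GTPases with a window, 10 had ISRE letters and 6 had GAS letters. These shares describe letters within a window and say nothing of which factor was bound.

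Cells of the same score were present in both skin libraries, and were a smaller share in dermis. The epidermal share was also lower, but it rested on 5 cells and its interval overlapped that of lymph node. Kept skin cells were deeper, with a median of 7052 UMIs in epidermis and 4813 in dermis, against 3034 in lymph node. At or above the lymph node limit were 5 of 271 epidermal cells (1.85%, 0.602 to 4.25) and 4 of 838 dermal cells (0.477%, 0.130 to 1.22), against 4.01% of lymph node cells (3.62 to 4.43). Without cells whose barcode was also in the other skin library, the shares were 1.27% of epidermal and 0.370% of dermal cells. Skin was run with the 10x v3 kit and lymph node with v2, so tissue and kit cannot be told apart. At 1500 UMIs, any score UMI was found in 9.54% of epidermal cells, in 9.45% of dermal cells and, in lymph node, in 2121 of 9216 thinned cells (22.2 to 23.9%). The 96th percentile of each skin library itself took 11 epidermal and 34 dermal cells. In the 11 epidermal cells Irf7 was 11.5-fold higher than in the other epidermal cells (6.98 to 18.6) and in the 34 dermal cells 4.07-fold higher than in the other dermal cells (2.45 to 6.46). Without shared barcodes these ratios were 10.3 in epidermis and 4.38 in dermis. The pooled antiviral genes were called higher for 51 of 79 tested in epidermis, where 10.3% of all genes were, and for 26 of 67 in dermis, where 3.51% were. In lymph node the count was 54 of 82.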

How the data were processed

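Droplet RNA libraries of sorted Tregs (GFP+ CD4+ CD3+ CD45+) were used, 1 per tissue. The authors deposited raw counts of UMIs by gene and barcode, from Cell Ranger and mm10, per the submitters' processing notes. Per the file headers, skin used Cell Ranger 4.0.0, while the lymph node version was not stated. Barcodes had been called as cells before deposit. No doublet caller was run, and cells above the 95th percentile of UMIs were left out as an alternative.

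The 27998 genes were summed to 27933 symbols. UMIs were summed over cells and scaled to CPM, and ratios had exact 95% binomial intervals, shares exact Clopper-Pearson intervals and CPM exact Poisson intervals. A call needed a 2-fold ratio and 10 CPM over all kept cells. With 1 library a group there was no test and no p-value. The ratio script was tested on simulated data. The members and the 32 lists were chosen with earlier results of these data known.

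The genes named were the 5 score genes, 13 fixed genes (Foxp3, Il2ra, Ctla4, Ccr7, Irf7, Irf9, Socs1, Ifnar1, Ifnar2, Ly6a, Bst2 and 2 that are not reported here), the 20 highest and 10 lowest ratios, and up to 4 genes per list with the ratio farthest from 1. Mitochondrial, ribosomal protein, predicted, immune receptor, sex-linked and haemoglobin genes stayed out of the ranked part. Further list members, among them the genes under 10 CPM, were named after their values were seen. Promoter windows were RefSeq's on GRCm38.p6, matched by symbol or synonym for 5465 of 6729 tested genes. TMM scaling, an alternative, came from edgeR 4.0.16 (R 4.3.3), and all else from Python 3.11.15 (scipy 1.17.1, numpy 2.4.6, pandas 2.3.3). Alternatives were other score limits and score genes, depth controls, CPM minimums, scalings and cell filters.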

Additional observations from a re-analysis of the deposited data

Results flagged for a closer look

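In epidermis, Treg core genes summed to 1.6-fold higher in the 11 cells at or above that library's own 96th percentile than in its other kept cells (1.51 to 1.69), while in lymph node the same ratio was 0.872 (0.850 to 0.895). Resting genes likewise had a ratio of 1.22 in the 11 epidermal cells (1.09 to 1.36) and 0.995 in lymph node, where the interval of 0.966 to 1.02 included 1. Both were picked out because the ratios lay on opposite sides of 1 in the 2 tissues, and the difference was not tested. Without cells whose barcode was also in the dermal library, the ratios in epidermis were 1.38 for Treg core and 1.18 for resting genes, over 9 cells. In the 5 epidermal cells at or above the lymph node limit they were 1.94 for Treg core (1.80 to 2.09) and 0.871 for resting genes (0.720 to 1.04), so the resting genes lay on the other side of 1 there. In the 34 dermal cells at or above that library's own 96th percentile they were 0.966 for Treg core (0.925 to 1.01) and 0.994 for resting genes (0.923 to 1.07).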

How the results depend on the processing

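Across 22 alternative settings the median log2 ratio of the pooled antiviral genes ran between 1.01 and 1.42, against 1.28 as reported. Of 46 named higher genes outside the score, 36 stayed at least 2-fold higher in all settings. Those that changed only the CPM minimum could not alter the ratio of a single gene. The count of higher genes was 44 at a minimum of 50 CPM, 853 with no minimum and 420 among cells with a Foxp3 UMI. For the Foxp3 setting the 96th percentile was taken anew among those cells and gave 27 cells. The count of lower genes (76) was less stable, at 7 with the 92nd percentile, 303 with the 98th, 211 at a minimum of 5 CPM, 0 at 50 CPM, 523 with no minimum, 1202 among cells with a Foxp3 UMI and 242 with the UMIs split, and the cause was not tested. Interferon list genes called higher (74) were 37 at 50 CPM. Higher genes were 57.1% of all calls, 65.2% with median-of-ratios scaling and 60.5% with TMM, and neither scaling moved the median of all genes by 0.1. That share was 90.9% with the 92nd percentile and under 50% in 6 of 22 settings, at 25.9% among cells with a Foxp3 UMI, 30.9% with the UMIs split, 31.6% with the 98th percentile, 38.1% at a minimum of 5 CPM, 47.7% on thinned cells and 49.8% with the mean of each cell's CPM. Irf9 was under 2-fold in 6 settings. Among cells with a Foxp3 UMI the log2 ratio changed sign for Stat2 (-0.59), Nrn1 (0.089), Dhx38 (0.84), Nkiras2 (0.33), Irf4 (0.70) and Lyz2 (2.86), and on cells thinned to 1500 UMIs for Nipal1 (0.020) and Mpp6 (0.55). Ties in the thinned score took 672 cells at that percentile. No paired analysis was possible because each tissue had 1 library. Depth limits the precision of the lower calls, of which 54 of 76 rested on fewer than 10 UMIs in interferon-signature cells.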
